A study of Mus musculus with 4 samples.

Results

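The 7 genes described here are Gas5, Snhg1, Snhg3, Snhg8 and Snhg12, whose introns hold small nucleolar RNAs (snoRNAs), and the nuclear long non-coding RNAs (lncRNAs) Neat1 and Malat1. They were chosen by name out of 25909 genes that could be named in a table of 63759 transcripts, and each is represented by its transcript with the longest gene body. All 7 were found, and together they had 19 transcripts. RNA-seq of total RNA was performed on immortalized MEF (mouse embryonic fibroblasts), a culture made from the trunk of C57BL/6 embryos at embryonic day 15.5. The 4 groups were Hmga2+/+ Ctrl and Hmga2+/+ TGFB1, both wild type, and Hmga2-/- Ctrl and Hmga2-/- TGFB1, which lack Hmga2, the gene of a chromatin protein that binds the minor groove of DNA. Cells of every group were starved overnight in 1% FCS, and the TGFB1 groups then received 10 ng/ml of human recombinant transforming growth factor beta 1 (TGFB1) for 24 h. Each group is 1 column of the table and is treated as 1 library, so differences between libraries could not be checked against replicates, no p-value is given, and differences between cell lines cannot be told apart from differences between genotypes. The study compared the genotypes to ask how far the response to TGFB1 depends on Hmga2.

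snoRNA host genes are transcribed by RNA polymerase II and spliced. The snoRNAs are then trimmed out of the excised introns and guide the chemical modification of ribosomal and spliceosomal RNA, whereas the spliced host RNA is often degraded by nonsense-mediated decay while it is being translated. Many host genes start transcription at a run of pyrimidines, as ribosomal protein genes do. Neat1 is the RNA scaffold of the nuclear bodies called paraspeckles, is made as a short polyadenylated and a long form that share their 5′ end, and needs the long form to build a paraspeckle. Malat1, its neighbour on chromosome 19, is one of the most abundant nuclear RNAs and lies in nuclear speckles.

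The starts of the genes are shown because the 5 host genes were all higher with TGFB1 and because a pyrimidine run is the best known feature of such starts. RefSeq (GRCm38.p6, the assembly of mm10) gave a start within 5 bases of the table's start for 6 of the 7 genes, the exception being Neat1. Each line runs from 50 bases before the start to 50 bases from it, 5′ to 3′ on the transcribed strand. Capitals mark every run of at least 5 letters that are all C or T and that comes within 15 bases of the start.
Gas5 (chr1:161035116-161035215, plus strand): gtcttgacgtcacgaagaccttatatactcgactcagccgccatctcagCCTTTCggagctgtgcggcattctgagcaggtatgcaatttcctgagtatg
Snhg1 (chr19:8723437-8723536, plus strand): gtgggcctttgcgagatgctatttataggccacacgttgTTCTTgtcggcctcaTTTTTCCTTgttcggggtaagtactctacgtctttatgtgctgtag
Snhg3 (chr4:132353637-132353736, minus strand): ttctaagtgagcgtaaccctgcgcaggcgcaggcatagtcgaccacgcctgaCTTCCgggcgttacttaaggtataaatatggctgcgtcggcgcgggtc
Snhg8 (chr3:123508287-123508386, minus strand): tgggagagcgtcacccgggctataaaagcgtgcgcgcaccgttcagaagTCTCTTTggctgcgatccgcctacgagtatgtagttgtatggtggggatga
Snhg12 (chr4:132308628-132308727, plus strand): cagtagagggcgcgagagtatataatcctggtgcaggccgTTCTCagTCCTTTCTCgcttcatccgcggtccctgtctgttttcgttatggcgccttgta
Malat1 (chr19:5802623-5802722, minus strand): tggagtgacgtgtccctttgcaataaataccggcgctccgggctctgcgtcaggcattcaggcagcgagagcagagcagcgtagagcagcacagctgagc

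All 5 host genes held such a run, and Malat1 did not. The run, searched on the transcribed strand alone, is common, as 56.5% of 32817 RefSeq starts held one. The letters TATA, which read the same on both strands, stood between 40 and 16 bases before the start in Gas5, Snhg1, Snhg8 and Snhg12, that is in 4 of these 6 genes, against 5.91% of all starts. Among the other non-coding host genes described further on, 7 of 11 with a RefSeq start held the run and 1 held TATA. These are matches of letters, and no binding or start site was measured here.

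In the table, Gas5 (ENSMUSG00000053332.13) covered 161035166 to 161038537 on the plus strand of chromosome 1, Snhg1 (ENSMUSG00000108414.1) 8723487 to 8726442 on the plus strand of chromosome 19, and Snhg3 (ENSMUSG00000085241.7) 132351933 to 132353686 on the minus strand of chromosome 4. Snhg8 (ENSMUSG00000104960.1) covered 123507552 to 123508336 on the minus strand of chromosome 3, and Snhg12 (ENSMUSG00000086290.9) 132308678 to 132311024 on the plus strand of chromosome 4. Neat1 (ENSMUSG00000092274.3) and Malat1 (ENSMUSG00000092341.3) lay on the minus strand of chromosome 19, at 5824710 to 5845480 and at 5795690 to 5802671. GENCODE placed 9 separate snoRNA positions inside Gas5, 8 inside Snhg1, 4 inside Snhg12, 2 inside Snhg3 and 1 inside Snhg8, and none inside Neat1 or Malat1. The host genes therefore range from 1 snoRNA to 9.

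The libraries held between 56140000 and 57290000 mapped reads, so that 3 reads on a transcript of 1000 bases correspond to 0.0524 to 0.0534 RPKM (reads divided by transcript length and by library depth). Hmga2 had 14.8 and 40.7 RPKM in the Hmga2+/+ Ctrl and TGFB1 libraries and 0 reads in both Hmga2-/- libraries. Ctgf, a standard TGFB1 target, went from 13.2 to 173 RPKM with TGFB1 in Hmga2+/+ cells and from 24.9 to 359 RPKM in Hmga2-/- cells. All 7 fibroblast markers checked were present, from 4.11 to 1497 RPKM, and their summed level was 1866 and 1938 RPKM in the Hmga2+/+ Ctrl and TGFB1 libraries and 2254 and 2158 RPKM in the Hmga2-/- ones. The summed level of 4 epithelial markers stayed between 0.403 and 1.04 RPKM and that of 2 leukocyte markers between 1.26 and 1.63 RPKM, with Ptprc at no more than 0.0070 RPKM, while the muscle markers Myod1 and Myog were at 0 throughout. Summed endothelial markers were higher with TGFB1, at 1.14 against 4.53 RPKM in Hmga2+/+ and 1.47 against 7.46 RPKM in Hmga2-/- cells, nearly all of it Kdr, with Pecam1 and Cdh5 at or below 0.0480 RPKM. Summed neural markers (Tubb3 and Sox2) were also higher, at 2.91 against 6.01 RPKM and 1.996 against 5.74 RPKM. The part of either marker group in the results was not tested.

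Malat1 stood far above the other members in every library. It had 1301 RPKM in Hmga2+/+ Ctrl, 856 RPKM in Hmga2+/+ TGFB1, 1115 RPKM in Hmga2-/- Ctrl and 778 RPKM in Hmga2-/- TGFB1. It took 0.908% of all mapped reads in the first of these libraries and 0.543% in the last, and it ranked sixth among the 25909 genes in Hmga2+/+ Ctrl and 13 in Hmga2-/- TGFB1. Malat1 was 55.5 times the next member, Neat1, in Hmga2+/+ Ctrl (95% interval from counting error 54.8 to 56.1) and 24.7 times the next member, Gas5, in Hmga2-/- TGFB1 (24.0 to 25.4). These ratios, and the order of levels below, hold for the transcript with the longest gene body and depend on that choice. The short Neat1 transcript had 66.1 RPKM in Hmga2+/+ Ctrl, and a Gas5 transcript of 351 bases had 85.3 RPKM in Hmga2-/- TGFB1. Against these, Malat1 stands above by much less. Here and throughout, intervals are exact binomial intervals of the ratio of 2 read counts unless stated otherwise, and they cover counting error only.

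The order of the other 6 levels changed with TGFB1. In Hmga2+/+ Ctrl it ran Neat1, Gas5, Snhg1, Snhg3, Snhg12, Snhg8, and in Hmga2+/+ TGFB1 it ran Gas5, Snhg1, Neat1, Snhg12, Snhg3, Snhg8. Neat1 thus went from just above Gas5 (1.13 times its level, 1.09 to 1.18) to below Snhg1 (Snhg1 at 1.21 times Neat1, 1.16 to 1.26). In Hmga2-/- Ctrl, Gas5 and Neat1 did not differ beyond counting error, at a ratio of 1.00 (0.963 to 1.04). Snhg3 and Snhg12, neighbours in 3 of the 4 orders, did not differ beyond it in any of those, with ratios from 1.05 to 1.09. Snhg8 was lowest in all 4 libraries, and its nearest neighbour was from 1.37 to 1.70 times as high.

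**Figure D1:**
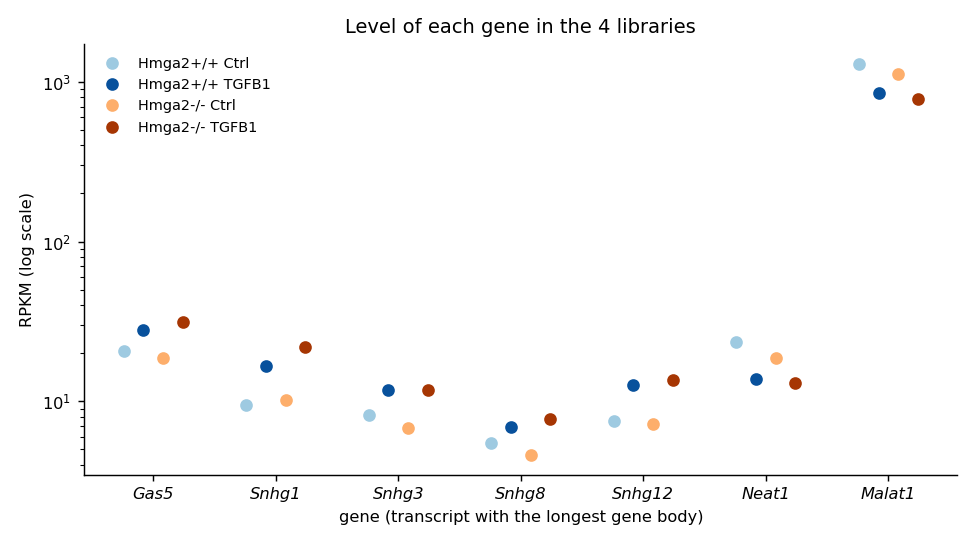
RPKM of the 7 genes (log scale) in the 4 libraries, 1 point per library. Each of the 5 host genes has both TGFB1 points above both Ctrl points, whereas Neat1 and Malat1 have both TGFB1 points below both Ctrl points, and Malat1 sits between 778 and 1301 RPKM.

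With TGFB1, all 5 snoRNA host genes were higher and both nuclear lncRNAs were lower, in both genotypes. A change of at least 1.5-fold, the study's own threshold, was reached by Snhg1 and Snhg12 in Hmga2+/+ cells and by all 5 host genes in Hmga2-/- cells, and in the lower direction by Neat1 and Malat1 in Hmga2+/+ cells alone. The threshold is 0.585 on the log2 scale. Counting intervals reached below it for Snhg12 in Hmga2+/+ cells and for Snhg3 and Snhg8 in Hmga2-/- cells, so these calls are not firm. The host genes' median log2 change was 0.52 in Hmga2+/+ and 0.80 in Hmga2-/- cells, beside medians of -0.05 and 0.01 over all genes with at least 1 RPKM in 1 of the 2 libraries. Of those genes, 11.8% were at least 1.5-fold higher and 17.4% at least 1.5-fold lower with TGFB1 in Hmga2+/+ cells, and 13.8% and 15.4% in Hmga2-/- cells. In bulk RNA a lower level per cell and fewer cells with a high level cannot be told apart.

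Snhg1, host of several box C/D snoRNAs, had the largest difference of the 7. It had 9.48 RPKM in Hmga2+/+ Ctrl, 16.7 RPKM in Hmga2+/+ TGFB1, 10.2 RPKM in Hmga2-/- Ctrl and 21.8 RPKM in Hmga2-/- TGFB1. The 2 Ctrl libraries were close together and both TGFB1 libraries were well above them. The fold was 1.76 in Hmga2+/+ cells (log2 0.82, 0.72 to 0.91, from 1450 and 2606 reads) and 2.14 in Hmga2-/- cells (log2 1.10, 1.01 to 1.18, from 1573 and 3386 reads).

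Snhg12 carries box H/ACA snoRNAs and a box C/D snoRNA. Its level was 7.52 RPKM in Hmga2+/+ Ctrl, 12.7 RPKM in Hmga2+/+ TGFB1, 7.16 RPKM in Hmga2-/- Ctrl and 13.6 RPKM in Hmga2-/- TGFB1. The genotypes did not differ beyond counting error at either treatment, and the TGFB1 libraries were 1.69-fold (log2 0.76, 0.53 to 0.99) and 1.89-fold (log2 0.92, 0.69 to 1.15) above Ctrl. Snhg3, whose introns hold box H/ACA snoRNAs, had 8.16 and 11.7 RPKM in Hmga2+/+ Ctrl and TGFB1 and 6.79 and 11.8 RPKM in Hmga2-/- Ctrl and TGFB1. From only 166 to 290 reads a library, its fold was 1.44 (log2 0.52, 0.26 to 0.79) and 1.74 (log2 0.80, 0.52 to 1.08), so the interval in each genotype reaches to both sides of 1.5-fold.

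Gas5 was named for its accumulation in growth-arrested cells, and its RNA is a well-known target of nonsense-mediated decay. It had 20.7 RPKM in Hmga2+/+ Ctrl, 27.8 RPKM in Hmga2+/+ TGFB1, 18.7 RPKM in Hmga2-/- Ctrl and 31.5 RPKM in Hmga2-/- TGFB1. The Hmga2-/- libraries thus lay outside the Hmga2+/+ ones on both sides. The fold with TGFB1 was 1.34 in Hmga2+/+ (log2 0.42, 0.35 to 0.49) and 1.68 in Hmga2-/- cells (log2 0.75, 0.68 to 0.82).

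Snhg8, which hosts a box H/ACA snoRNA, had the same arrangement at a lower level. Its RPKM was 5.50 in Hmga2+/+ Ctrl, 6.88 in Hmga2+/+ TGFB1, 4.596 in Hmga2-/- Ctrl and 7.80 in Hmga2-/- TGFB1. The fold with TGFB1 was 1.25 (log2 0.32, 0.08 to 0.57) in Hmga2+/+ cells, the smallest of the 5 hosts, and 1.70 (log2 0.76, 0.51 to 1.02) in Hmga2-/- cells.

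Neat1 went from 23.5 RPKM in Hmga2+/+ Ctrl to 13.8 RPKM in Hmga2+/+ TGFB1, and from 18.7 RPKM in Hmga2-/- Ctrl to 13.1 RPKM in Hmga2-/- TGFB1. The TGFB1 libraries of the genotypes were close together, and the Ctrl libraries were further apart. Neat1 was 1.70-fold lower with TGFB1 in Hmga2+/+ (log2 -0.77, -0.79 to -0.74) and 1.43-fold lower in Hmga2-/- cells (log2 -0.52, -0.55 to -0.49).

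Malat1 was 1.52-fold lower with TGFB1 in Hmga2+/+ cells (log2 -0.60, -0.61 to -0.60) and 1.43-fold lower in Hmga2-/- cells (log2 -0.52, -0.52 to -0.51). Its value in Hmga2+/+ cells is only just past 1.5-fold, and with the libraries rescaled to their median ratio it was -0.57 on the log2 scale, short of the threshold. Because Malat1 and Neat1 are adjacent genes with no base in common in this table, their reads are separate.

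**Figure D2:**
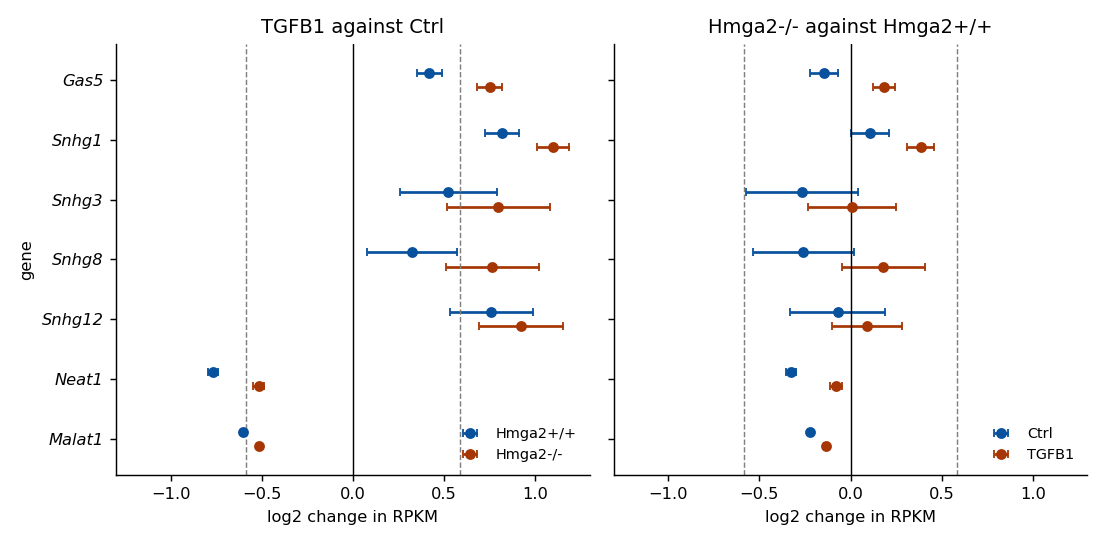
Log2 change in RPKM of the 7 genes for TGFB1 against Ctrl (left, by genotype) and for Hmga2-/- against Hmga2+/+ (right, by treatment). Bars are 95% counting intervals of 1 library against another and dashed lines mark 1.5-fold; the 5 host genes lie right of 0 and Neat1 and Malat1 left of it under TGFB1, and no gene passes a dashed line between genotypes.

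The log2 change with TGFB1 was higher in Hmga2-/- than in Hmga2+/+ cells for all 7 members, so that the host genes differed more from Ctrl and Neat1 and Malat1 less. The difference of the 2 log2 changes (Hmga2-/- minus Hmga2+/+) was 0.44 for Snhg8, 0.33 for Gas5, 0.28 for Snhg1, 0.28 for Snhg3, 0.25 for Neat1, 0.16 for Snhg12 and 0.09 for Malat1. Intervals of these differences come from the normal approximation to the log odds ratio of 4 read counts. They excluded 0 for Gas5 (0.23 to 0.43), Snhg1 (0.15 to 0.41), Snhg8 (0.09 to 0.79), Neat1 (0.21 to 0.29) and Malat1 (0.08 to 0.10), and included it for Snhg3 (-0.10 to 0.65) and Snhg12 (-0.15 to 0.48). For Snhg1 the spliced transcript of 457 bases gave a difference of 0.15 (-0.05 to 0.35), whose interval holds 0, and the longer transcript also counts reads of Snord22, a snoRNA described further on. With 1 library per condition these intervals leave out the variation between cultures, which was not measured. The median ratio over transcripts differed between TGFB1 and Ctrl libraries by -0.04 in Hmga2+/+ and by 0.01 in Hmga2-/- cells on the log2 scale, and once the libraries were rescaled by it the Malat1 difference was 0.04.

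Between genotypes, no member reached 1.5-fold at either treatment. In Ctrl libraries 2.60% of all genes were at least 1.5-fold higher and 2.58% at least 1.5-fold lower in Hmga2-/- than in Hmga2+/+ cells, and in TGFB1 libraries 3.40% and 2.06% were. Without TGFB1, 6 of the 7 were lower in Hmga2-/- cells, with log2 differences from -0.33 for Neat1 (-0.35 to -0.30) to -0.07 for Snhg12 (-0.33 to 0.19), and Snhg1 was at 0.11 (0.00 to 0.21). The intervals for Neat1, Malat1 (log2 -0.22, -0.23 to -0.22) and Gas5 (log2 -0.15, -0.22 to -0.07) lay below 0, and those for Snhg3, Snhg8 and Snhg12 held 0.

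With TGFB1, the 5 host genes were at or above their Hmga2+/+ level in Hmga2-/- cells, the log2 difference being 0.39 for Snhg1 (0.31 to 0.46), 0.18 for Gas5 (0.12 to 0.24), 0.18 for Snhg8 (-0.05 to 0.41), 0.09 for Snhg12 (-0.10 to 0.28) and 0.01 for Snhg3 (-0.23 to 0.25). The Snhg1 value was 0.22 (0.11 to 0.34) on the spliced transcript, and outside the spliced bases it went from 0.51 (0.41 to 0.61) to 0.17 (0.06 to 0.29) once the bases of Snord22 were left out. The sign for Snhg3 turned when the libraries were rescaled, to -0.0042. Neat1 and Malat1 were lower in Hmga2-/- TGFB1 than in Hmga2+/+ TGFB1 cells, by log2 values of -0.08 (-0.11 to -0.05) and -0.14 (-0.14 to -0.13). The comparisons between genotypes use the same 4 libraries as the TGFB1 responses and are not independent of them.

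The table lists Neat1 as a long transcript of 20770 bases in 1 exon, a short one of 3001 bases in 2 exons at 5842307 to 5845476, and a spliced fragment of 149 bases inside the short one. The short transcript had 66.1 RPKM in Hmga2+/+ Ctrl, 33.7 RPKM in Hmga2+/+ TGFB1, 50.1 RPKM in Hmga2-/- Ctrl and 32.0 RPKM in Hmga2-/- TGFB1. Reads over these bases can come from either form, since the short form is the 5′ end of the long one. Of the 17767 bases of the long transcript outside the short one, 17601 lie outside its span and are particular to the long form. The others are the intron of the short transcript, where its unspliced RNA can also give reads. Subtracting the reads of the short transcript left 16.3, 10.4, 13.4 and 9.86 RPKM over the 17767 bases, in the same order of libraries.

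Both parts of Neat1 were lower with TGFB1, and the 5′ part by more. In Hmga2+/+ cells the 5′ part was 1.96-fold lower (log2 -0.97, -1.02 to -0.93) and the rest 1.56-fold lower (log2 -0.64, -0.68 to -0.61). In Hmga2-/- cells the values were 1.57-fold (log2 -0.65, -0.70 to -0.60) and 1.36-fold (log2 -0.44, -0.48 to -0.40).

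Read density in the 5′ part was 4.06 times that in the rest in Hmga2+/+ Ctrl (3.97 to 4.16) and 3.74 times in Hmga2-/- Ctrl (3.63 to 3.84). It was 3.23 times that in the rest in Hmga2+/+ TGFB1 (3.13 to 3.34) and 3.24 times in Hmga2-/- TGFB1 (3.13 to 3.35). The ratios of the 2 TGFB1 libraries did not differ beyond counting error and lay below those of both Ctrl libraries. The ratio changed with TGFB1 by -0.33 on the log2 scale in Hmga2+/+ (-0.39 to -0.27) and by -0.21 in Hmga2-/- cells (-0.27 to -0.14), these last 2 intervals again by the normal approximation. For Neat1 the choice of transcript decides the call in Hmga2-/- cells, where the 5′ part passes 1.5-fold and the long transcript does not. The 149-base fragment was lower in both genotypes too, at 17.7 and 9.49 RPKM in Hmga2+/+ Ctrl and TGFB1 and at 14.9 and 8.01 RPKM in Hmga2-/- Ctrl and TGFB1. A transcript of 1025 bases on the opposite strand of Neat1 had 0.358 to 1.08 RPKM, which is 1.06% to 1.63% of the level of the short transcript.

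For 4 of the host genes the table lists both a spliced transcript and one that keeps further bases, mostly introns, and the same subtraction separates them. Of these further bases, 24.6% in Snhg1, 19.7% in Gas5, 31.3% in Snhg8 and 22.5% in Snhg12 lie in snoRNAs. Snhg1 has a 10-exon transcript of 457 bases inside a 2-exon transcript of 2725 bases. The spliced bases had 20.9 RPKM in Hmga2+/+ Ctrl, 45.6 RPKM in Hmga2+/+ TGFB1, 22.1 RPKM in Hmga2-/- Ctrl and 53.3 RPKM in Hmga2-/- TGFB1. The 2252 other bases had 7.22, 10.9, 7.86 and 15.6 RPKM. With TGFB1 the spliced bases were 2.18-fold higher in Hmga2+/+ (log2 1.12, 0.98 to 1.27) and 2.42-fold higher in Hmga2-/- cells (log2 1.27, 1.13 to 1.42), and the other bases 1.51-fold (log2 0.60, 0.48 to 0.72) and 1.98-fold (log2 0.99, 0.88 to 1.10). The spliced part therefore moved by more than the rest, by 0.53 (0.34 to 0.72) and 0.29 (0.11 to 0.46) on the log2 scale.

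Gas5 showed the opposite order. Its 8-exon transcript of 329 bases had 49.97 RPKM in Hmga2+/+ Ctrl, 63.3 RPKM in Hmga2+/+ TGFB1, 49.4 RPKM in Hmga2-/- Ctrl and 74.0 RPKM in Hmga2-/- TGFB1, and the 2210 other bases of the 2547-base transcript had 16.5, 22.6, 14.3 and 25.3 RPKM. The spliced bases were 1.27-fold higher with TGFB1 in Hmga2+/+ and 1.499-fold higher in Hmga2-/- cells, and the rest 1.37-fold and 1.78-fold. In Hmga2-/- cells the spliced part moved by less than the rest, by -0.24 (-0.39 to -0.10), and in Hmga2+/+ cells the difference was -0.11 (-0.26 to 0.04). Of those other bases, 47.3% are exons in other Gas5 transcripts with at least 8 exons, so they are not purely intronic. All 6 Gas5 transcripts were higher with TGFB1 in both genotypes, with log2 changes from 0.31 to 0.42 in Hmga2+/+ and from 0.58 to 0.78 in Hmga2-/- cells, where 5 of the 6 passed 1.5-fold and the 329-base transcript did not.

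Snhg8 and Snhg12 gave too few reads outside their spliced transcripts, from 44 to 103 a library, to separate the parts. The spliced part minus the rest was 0.0068 (-0.51 to 0.53) and 0.19 (-0.35 to 0.72) for Snhg8 in Hmga2+/+ and Hmga2-/- cells, and 0.38 (-0.16 to 0.92) and 0.22 (-0.37 to 0.81) for Snhg12. The 3 transcripts of Snhg8 spanned log2 changes of 0.32 to 0.35 and of 0.76 to 0.82 in the respective genotypes, and the 2 of Snhg12 spanned 0.69 to 0.76 and 0.89 to 0.92. Snhg3 and Malat1 have 1 transcript each in the table.

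**Figure D3:**
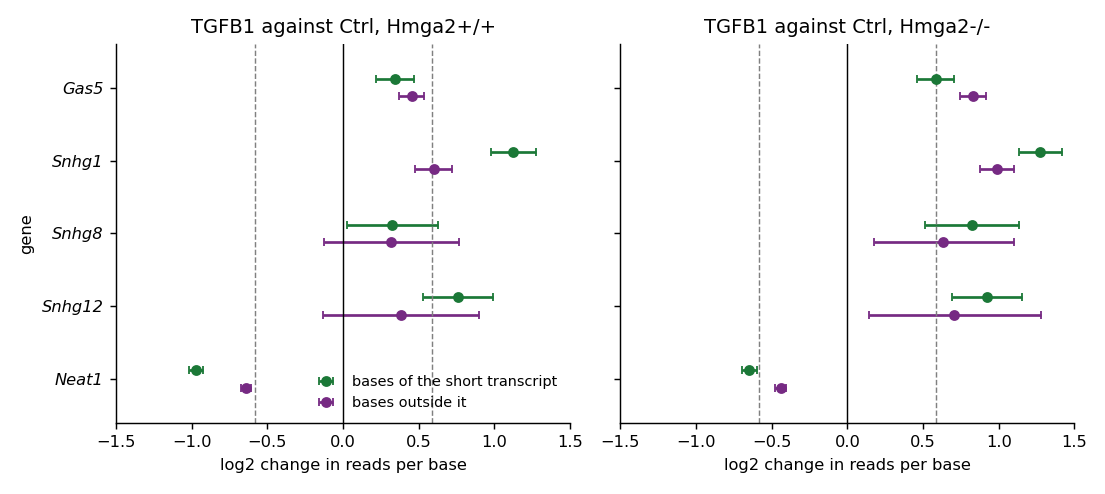
Log2 change with TGFB1 in reads per base over the short transcript (green) and over the bases of the long one outside it (purple), in Hmga2+/+ (left) and Hmga2-/- (right) cells. Bars are 95% counting intervals and dashed lines mark 1.5-fold; for Snhg1 the short part lies further right than the rest, and for Neat1 further left, in both genotypes.

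The table also lists 6 snoRNAs inside the host genes. Snord22 of Snhg1, Snord47 of Gas5 and Snora44 of Snhg12 reached 10 reads in at least 1 library, and Snora61, Snora16a and Snord99, all in Snhg12, did not. The sequences of the first 3 and of Snord99 are given as in GENCODE (GRCm38), 5′ to 3′, to show which of them carry the plain letters of the boxes that bind core proteins. Capitals mark the letters TGATGA (box C) and the last CTGA (box D), searched on the RNA's own strand.
Snord22 (chr19:8725866-8725991, plus strand): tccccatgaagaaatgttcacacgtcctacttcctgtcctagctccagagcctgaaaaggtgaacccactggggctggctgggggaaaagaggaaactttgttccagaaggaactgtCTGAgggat
Snord47 (chr1:161038082-161038158, plus strand): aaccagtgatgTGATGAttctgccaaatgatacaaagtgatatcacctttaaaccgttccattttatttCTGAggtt
Snord99 (chr4:132310691-132310764, plus strand): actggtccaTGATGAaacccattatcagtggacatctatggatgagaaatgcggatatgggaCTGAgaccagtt
Snora44 (chr4:132309941-132310069, plus strand): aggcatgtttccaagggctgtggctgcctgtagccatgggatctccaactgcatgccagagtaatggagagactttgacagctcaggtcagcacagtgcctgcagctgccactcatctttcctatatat
Snord47 and Snord99 hold both boxes in these exact letters, and Snord22 holds CTGA but not TGATGA. Snora44 is of the other class, box H/ACA, and the letters ACA of that class do not stand near its 3′ end. They do in Snora61 and Snora16a, whose sequences are not shown.

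Snord22 stood apart from its host in Hmga2+/+ cells. It had 32.3 RPKM in Hmga2+/+ Ctrl (227 reads), 34.3 RPKM in Hmga2+/+ TGFB1 (246 reads), 45.9 RPKM in Hmga2-/- Ctrl (325 reads) and 97.2 RPKM in Hmga2-/- TGFB1 (692 reads). The Hmga2-/- TGFB1 library was far above the other 3, and the Hmga2+/+ libraries did not differ beyond counting error. The log2 change with TGFB1 was 0.09 (-0.18 to 0.35) in Hmga2+/+ and 1.08 (0.89 to 1.28) in Hmga2-/- cells, and their difference was 1.00 (0.67 to 1.32, normal approximation). Reads on these bases can come from the mature snoRNA or from the unspliced host, which cannot be told apart here.

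Without the bases of Snord22, the part of Snhg1 outside the spliced transcript had 5.74 and 9.56 RPKM in Hmga2+/+ Ctrl and TGFB1 and 5.62 and 10.8 in Hmga2-/- Ctrl and TGFB1. It was then 1.66-fold (log2 0.73, 0.60 to 0.87) and 1.92-fold (log2 0.94, 0.80 to 1.08) higher with TGFB1. Of the 553 bases of this part that lie in snoRNAs, only those of Snord22 were left out. Snord22 thus took between 9.44% and 20.7% of the reads of the 2725-base Snhg1 transcript.

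Snord47 and Snora44 were sparse. Snord47 had 31 and 41 reads in Hmga2+/+ Ctrl and TGFB1 and 20 and 30 reads in Hmga2-/- Ctrl and TGFB1, with log2 changes of 0.37 (-0.33 to 1.10) and 0.58 (-0.29 to 1.47). Snora44 had 28 and 44 reads and 21 and 33 reads in the same order, with log2 changes of 0.62 (-0.09 to 1.36) and 0.64 (-0.19 to 1.51). All of these intervals hold 0, so a change was not detectable at this depth.

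The other genes of the pathway are given by list. For comparison, of all genes with at least 1 RPKM, 11.8% were at least 1.5-fold higher and 17.4% lower with TGFB1 in Hmga2+/+ cells. In Hmga2-/- cells these shares were 13.8% and 15.4%. Of 16 other non-coding snoRNA host genes, 14 were in the table and 11 had at least 1 RPKM in 1 of the libraries compared. With TGFB1, 8 of the 11 were at least 1.5-fold higher and 1 lower in Hmga2+/+ cells, with a median log2 change of 0.71, and 9 were higher and 0 lower in Hmga2-/- cells, with a median of 0.97. Snhg15 was highest of these in both genotypes, going from 1.99 to 4.36 RPKM in Hmga2+/+ (log2 1.13) and from 2.91 to 7.44 RPKM in Hmga2-/- cells (log2 1.36). The others past 1.5-fold in both were Snhg17 (log2 1.06 and 1.18), Snhg6 (0.86 and 1.13), Dancr (0.71 and 1.17), Snhg16, Zfas1, Epb41l4aos and Snhg5. Snhg9 was past it in Hmga2-/- cells alone. Counting intervals reached below 1.5-fold for Snhg5, Dancr, Epb41l4aos and Snhg16 in Hmga2+/+ cells. They also did for Snhg9, Epb41l4aos and Snhg16 in Hmga2-/- cells, so these calls are not firm.

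Among the 11, Snhg18 alone was at least 1.5-fold lower in Hmga2+/+ cells. It went from 4.41 to 2.28 RPKM in Hmga2+/+ (log2 -0.95) and from 4.33 to 3.06 RPKM in Hmga2-/- cells (log2 -0.50). Snhg10, Snhg11 and Snhg14, below 1 RPKM in every library, are outside these counts. Snhg11 was lower with TGFB1, at log2 -2.48 (-3.23 to -1.80) in Hmga2+/+ and -1.80 (-2.59 to -1.06) in Hmga2-/- cells. Snhg10 was at 0.64 and -0.73 with intervals that held 0, and Snhg14 had no reads. Between genotypes, Snhg9 and Snhg15 were at least 1.5-fold higher in Hmga2-/- TGFB1 than in Hmga2+/+ TGFB1. The log2 values were 1.01 (0.13 to 1.94) for Snhg9 and 0.77 (0.51 to 1.04) for Snhg15. Both intervals reach below 1.5-fold, so these calls are not firm. Over all genes, 3.40% were at least 1.5-fold higher in this comparison. No gene of the list with at least 1 RPKM was past 1.5-fold in the Ctrl libraries, where 2.60% of all genes were higher and 2.58% lower.

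Protein-coding genes that host snoRNAs moved less as a list. Of 19, 4 were at least 1.5-fold higher with TGFB1 in Hmga2+/+ and 5 in Hmga2-/- cells, none was lower, and the medians were 0.36 and 0.42. The 4 were Dkc1 (log2 1.27 and 1.10), which encodes the pseudouridine synthase of box H/ACA particles, Nop56 (1.23 and 1.02), Eif4a1 (1.13 and 1.05), a translation initiation helicase, and Ncl (1.10 and 0.97), the nucleolar protein nucleolin. Rack1, a ribosomal scaffold protein, was past 1.5-fold in Hmga2-/- cells alone, at 0.46 and 0.69. Counts of ribosomal protein genes can be split with near-identical pseudogenes and are uncertain for that reason.

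The core proteins of snoRNA particles were higher as a list. All 8 measured were above 0 in both genotypes, 7 of the 8 were at least 1.5-fold higher in Hmga2+/+ and 6 in Hmga2-/- cells, and the medians were 0.96 and 0.90. Besides Dkc1 and Nop56, which are on both lists, these were Nhp2 (1.22 and 0.96), Nop58 (0.97 and 0.91), Gar1 (0.94 and 0.89) and Fbl (0.69 and 0.71), the methyltransferase fibrillarin, with Snu13 past 1.5-fold in Hmga2+/+ cells alone (0.61 and 0.49). Nop10 was at 0.32 and 0.46. Counting intervals reached below 1.5-fold for Fbl in both genotypes and for Snu13 in Hmga2+/+ cells.

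Among 10 factors of nonsense-mediated decay, the pathway that degrades spliced Gas5 RNA, Smg5 (log2 0.63 and 0.67) was at least 1.5-fold higher with TGFB1 in both genotypes and Smg9 (0.71 and 0.53) in Hmga2+/+ cells alone. The counting intervals of Smg5 and Smg9 in Hmga2+/+ cells reached below 1.5-fold. None of the 10 was at least 1.5-fold lower. Over all genes the share at least 1.5-fold higher was 11.8% in Hmga2+/+ and 13.8% in Hmga2-/- cells, so the counts of this list do not set it apart. Smg6 was below Ctrl in both genotypes (-0.29 and -0.35), and the helicase Upf1 was at 0.26 and 0.28.

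None of the 9 paraspeckle proteins reached 1.5-fold in any comparison. Between genotypes only 2.06% to 3.40% of all genes did in either direction, so reaching it in none there does not set this list apart. The log2 changes of the 9 with TGFB1 ran from -0.44 to 0.35 in Hmga2+/+ and from -0.39 to 0.30 in Hmga2-/- cells, with medians of 0.02 and 0.10. Pspc1 was lowest in both (55.1 to 40.5 RPKM and 60.9 to 46.5 RPKM), and Sfpq (log2 0.02 and 0.10) and Nono (-0.07 and -0.06), which bind Neat1, were near 0.

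Of 17 other lncRNAs, 15 had at least 1 RPKM in 1 of the libraries compared. With TGFB1, 3 were at least 1.5-fold higher and 4 lower in Hmga2+/+ cells, and 2 higher and 3 lower in Hmga2-/- cells, with medians of -0.27 and -0.30. Over all genes the shares higher and lower were 11.8% and 17.4% in Hmga2+/+ and 13.8% and 15.4% in Hmga2-/- cells. With so few genes, the counts of this list do not set it apart from all genes. Mir17hg, the host of a microRNA cluster, was highest in both, going from 1.57 to 5.24 RPKM and from 1.41 to 5.02 RPKM (log2 1.74 and 1.83). Mir22hg was past 1.5-fold in both genotypes (0.72 and 1.11) and Pvt1 in Hmga2+/+ cells alone (0.92 and 0.39). The counting interval of Mir22hg reached below 1.5-fold in Hmga2+/+ cells.

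Lower with TGFB1 in both genotypes were Meg3, an imprinted lncRNA (log2 -0.99 and -1.07), Lncpint (-0.89 and -1.20) and Dleu2 (-0.82 and -1.32). In Hmga2+/+ cells the counting intervals of Lncpint and Dleu2 included changes short of 1.5-fold. Rian, of the same imprinted region as Meg3, was past 1.5-fold in Hmga2+/+ cells alone (-0.74 and -0.53). Meg3 had 10.4 RPKM in Hmga2+/+ Ctrl and 4.82 RPKM in Hmga2-/- Ctrl, and Meg3 (log2 -1.11 and -1.19) and Rian (-1.11 and -0.90) were the members of the list at least 1.5-fold lower in Hmga2-/- cells in Ctrl and in TGFB1 libraries. Pvt1 was at least 1.5-fold higher in Hmga2-/- Ctrl (0.68, 0.40 to 0.98), with an interval that reaches below 1.5-fold. Over all genes, 2.58% were at least 1.5-fold lower in Hmga2-/- cells in Ctrl and 2.06% in TGFB1 libraries. The share at least 1.5-fold higher in Ctrl libraries was 2.60%.

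**Figure D4:**
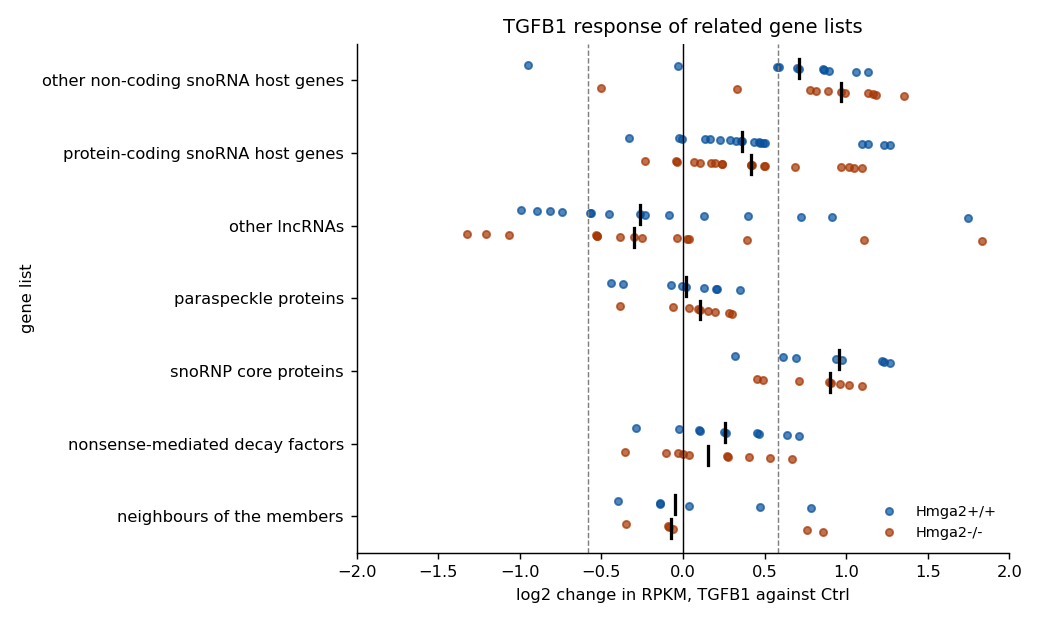
Log2 change with TGFB1 of each gene in 7 lists with at least 1 RPKM in 1 of the 2 libraries, in Hmga2+/+ (blue) and Hmga2-/- (brown) cells; black bars are list medians and dashed lines mark 1.5-fold. The other non-coding host genes (medians 0.71 and 0.97) and the snoRNA particle proteins (0.96 and 0.90) lie mostly to the right, and the paraspeckle proteins lie between the dashed lines.

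Genes next to the members were also compared. Slc3a2, an amino acid transporter subunit that starts 118 bases from Snhg1 on the opposite strand, had 16.6 and 28.6 RPKM in Hmga2+/+ Ctrl and TGFB1 and 16.9 and 30.6 RPKM in Hmga2-/- Ctrl and TGFB1. Its log2 changes were 0.79 and 0.86, beside 0.82 and 1.10 for Snhg1. Zbtb37, which starts 318 bases from Gas5 on the opposite strand, was at 0.03 and -0.35, beside 0.42 and 0.75 for Gas5. Rcc1, on the same strand as Snhg3, was at 0.47 and 0.76, past 1.5-fold in Hmga2-/- cells alone. Frmd8 next to Neat1 (-0.14 and -0.06) and Trnau1ap next to Snhg12 (-0.14 and -0.08) stayed within 1.5-fold, and Prss12 next to Snhg8 was below 1 RPKM.

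Genes with the most similar pattern were sought among 10079 genes with at least 1 RPKM in all 4 libraries, by the root mean square distance of log2 RPKM centred on each gene's mean, over 4 libraries. The closest was Trappc4 to Gas5 (distance 0.0161), Xbp1 to Snhg1 (0.0123), Tmem251 to Snhg3 (0.0251), Slc25a13 to Snhg8 (0.0087), Acvr1 to Snhg12 (0.0134), Eml3 to Neat1 (0.0046) and Prpf40b to Malat1 (0.0094). Second were Serp1, Denr, Fpgs, Ndfip2, Eif5, Pnisr and H2-Q4 in the same order. With 4 values a gene such matches are common, as between 115 genes, for Snhg1, and 472 genes, for Malat1, lay within a distance of 0.1.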

How the data were processed

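Total RNA of MEF in 4 conditions was sequenced as stranded 75-base single reads. The paper speaks of duplicates, whereas the table has 1 column per condition. Whether a column pools duplicates or holds 1 of them is not given in the sources used here. The authors used Trimmomatic for trimming and HISAT2 2.1.0 for mapping to mm10, and deposited RPKM per UCSC transcript from HOMER. The file header names exons on the annotated strand, whereas the methods name genes. The transcript length in bases, also deposited by the authors, was used with RPKM to recover reads. Mapped reads per library were the value at which low RPKM of transcripts under 600 bases are whole reads (100% of values within 0.1 read). No sample column was left out.

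Transcripts took the name of the best matching GENCODE vM21 gene covering at least 50% of their span on the same strand (57708 of 63759). A value of 0 RPKM was set to 0.001 and the fold threshold was 1.5, as in the study's methods. Fold counts over lists and over all genes required at least 1 RPKM in 1 of the 2 libraries. Intervals are 95% Clopper-Pearson. Genes named are the 7 members, list genes past 1.5-fold, snoRNAs with at least 10 reads, the 2 most similar genes per member, and label checks (Smad7, also checked, was higher with TGFB1 in both genotypes; some items are not reported here). Paraspeckle, neighbour and below-threshold values, the split of host genes into parts and the removal of Snord22 were added after values were seen. So were the start sequences, with their counts of runs and TATA, and the search for snoRNA boxes. Members and lists were chosen with earlier results of these data known. Symbols without a match were looked up among RefSeq synonyms. Snhg4 and Snhg7 were not analysed here. Depth recovery was tested on simulated data. Python 3.11.15, numpy 2.4.6, pandas 2.3.3, scipy 1.17.1 and matplotlib 3.10.9 were used. Alternatives were pseudocounts of 1 and 0.1 RPKM, rescaling to the median ratio, other choices of transcript, a 2-fold threshold and no filter on low RPKM.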

Additional observations from a re-analysis of the deposited data

Results flagged for a closer look

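Snhg9, a snoRNA host gene at low level, differed in sign between the genotypes with TGFB1, but the value in Hmga2+/+ cells was indistinguishable from 0. It had 1.68 and 1.65 RPKM in Hmga2+/+ Ctrl and TGFB1, from 17 reads in each (log2 -0.03, 95% counting interval -1.09 to 1.03), and 1.67 and 3.32 RPKM in Hmga2-/- Ctrl and TGFB1, from 17 and 34 reads (log2 0.99, 0.11 to 1.92). The difference of 1.02 on the log2 scale was not tested over replicates, since each condition is 1 library.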

How the results depend on the processing

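No paired analysis was possible because each condition is 1 library. Of 140 recomputed log2 changes of the members, 1 changed sign (Snhg3 between genotypes with TGFB1, -0.0042 when rescaled), and 22 moved beyond their counting interval. Of 35 recomputed differences between genotypes, 4 did. Some of these recomputed values could not move. Snhg3 and Malat1 have 1 transcript each, so other choices of transcript repeat their values by construction. For Snhg12, the transcript of the highest mean RPKM is the one already used. At a 2-fold threshold, the members higher with TGFB1 were 0 in Hmga2+/+ and 1 in Hmga2-/- cells, those lower in Hmga2+/+ cells were 0, and the list genes higher were 8 and 9, from 23 in each genotype at 1.5-fold, and lower in Hmga2+/+ cells 0, from 5. Between genotypes, the 2-fold threshold left 0 list genes higher in Ctrl, 1 higher in TGFB1 and 1 lower in TGFB1. With a pseudocount of 1 RPKM, the list genes at least 1.5-fold higher with TGFB1 were 18 in Hmga2+/+ and 22 in Hmga2-/- cells. Rescaling to the median ratio left 1 member lower with TGFB1 in Hmga2+/+ cells, Neat1. With the transcript of the highest mean RPKM, or with the mean over transcripts, 1 member, Neat1, was at least 1.5-fold lower in Hmga2-/- cells. The 1 list gene higher in Hmga2-/- Ctrl, Pvt1, was not past 1.5-fold (0 genes) with a pseudocount of 1 RPKM or with the transcript of the highest mean RPKM. A pseudocount of 1 RPKM gave a Neat1 ratio of 5′ part to rest of 3.89, 3.04, 3.55 and 3.03 in Hmga2+/+ Ctrl and TGFB1 and Hmga2-/- Ctrl and TGFB1. A pseudocount shrinks folds by construction, and the cause of the other changes was not tested. Depth limits Snhg3, Snhg8, Snhg12 and the snoRNAs most. Variation between cultures was not measured.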
